A study of Mus musculus with 15 samples.

Results

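Levels of 8 genes of the circadian clock, Bmal1, Clock, Npas2, Cry1, Cry2, Rora, Nfil3 and Noct, were followed mouse by mouse in dystrophic skeletal muscle and heart. They are 8 of the 56980 genes in the expression table. They were chosen by name, with the difference between D + Q–treated and vehicle-treated hearts already known, so that their heart values are a description with no p-value, and any call of the heart fit for them is given as a count from which nothing is read. Bulk RNA-seq covered 15 libraries from DBA/2J-mdx mice, which lack dystrophin on a background with severe dystrophy, and there was no wild-type group. Tibialis anterior (TA) muscle came from 4 mice given dasatinib and quercetin (D + Q, a drug pair meant to clear senescent cells) and 4 given vehicle, from 3 to 5 months of age, for 2 months. Hearts came from 3 D + Q–treated and 4 vehicle-treated mice, from 12 to 16 months of age, for 4 months. All groups were dosed 2 times per week. All 4 D + Q–treated TA mice were labelled male, as were vehicle TA mice 1 and 3, vehicle hearts 1 and 4 and D + Q heart 3, and the other mice were labelled female. The mice were kept in a light/dark cycle, and the hour at which each tissue was collected is not given in the sources used here.

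The mammalian clock is a loop of transcription. BMAL1 pairs with CLOCK, or with its paralog NPAS2, and the pair switches on genes that hold an E-box, among them the Period and Cryptochrome genes, whose proteins in turn hold the pair back. RORα activates and the REV-ERB proteins repress genes that hold a ROR element (RORE), Bmal1 being the best known, so that Bmal1 mRNA peaks at nearly the opposite time of day to REV-ERB and Dbp mRNA. NFIL3 represses genes with a D-box that DBP, TEF and HLF activate, and Noct encodes nocturnin, a rhythmic enzyme related to deadenylases. Striated muscle, skeletal and cardiac, runs such a clock of its own.

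Expression was given as TPM (the usual RNA-seq unit, scaled by transcript length to the same total in every library), so levels of different genes can be set side by side, but the read depth behind a value is unknown and the only error is the spread between mice. Fold changes are differences of log2(TPM + 0.5), which understates changes at low TPM. Those between treatments within a tissue come from a model. It adjusts for labelled sex in heart and, in TA, for 1 surrogate variable, an unlabelled source of variation estimated from all genes. Each tissue showed its own muscle markers, with 5 fast skeletal genes summing to between 23477 and 30025 TPM in TA and 6 cardiac genes summing to between 22901 and 30360 TPM in heart. D + Q heart 2 held 57.2 TPM of the fast skeletal genes, against 1.36 to 3.92 TPM in the other hearts. D + Q heart 3 was labelled male but had Y-linked transcripts at or near 0 and expressed Xist, so heart values are also given without it. Read from expression, every D + Q heart was female, while vehicle hearts were of both sexes. In TA every D + Q mouse was male, while vehicle mice were of both sexes. Sex and treatment therefore cannot be fully told apart in either tissue. In bulk tissue, fewer cells of a type and less RNA per cell cannot be told apart.

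The start regions of the 8 genes were searched for the elements through which the loop acts, and the 3 matches are shown because they are where Bmal1, Nfil3 and Cry1 carry letters that the ROR and E-box factors of the loop recognise. The 11 windows of 300 bases that RefSeq gives for these genes were placed on GRCm39 by exact match and read on both strands for the RORE (TAGGTCA or TGGGTCA), the E-box (CACGTG) and the D-box (TTATGTAA or TTACGTAA). Capitals mark the match in the 30 bases around it, written on the strand of the gene.
Bmal1 (chr7:112806737-112806766, plus strand): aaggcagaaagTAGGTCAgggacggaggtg
Nfil3 (chr13:53135069-53135098, minus strand): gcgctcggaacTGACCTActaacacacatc
Cry1 (chr10:85020961-85020990, minus strand): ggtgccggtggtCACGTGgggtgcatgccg
Distances are counted from the start that each RefSeq window is built around, which lies inside the GENCODE gene positions given below. The RORE of Bmal1 lay at bases 31 to 37 after that start, and the other Bmal1 window held no match. That of Nfil3, which reads TAGGTCA on the other strand, lay at bases 12 to 6 before its start. The E-box of Cry1 lay at bases 60 to 55 before its start. GENCODE places all 3 matches in a UTR exon of at least 1 transcript of the gene. Of 32851 RefSeq windows in all, 6.45% held the RORE, 7.15% the E-box and 1.06% the D-box, so each match is a description only. The windows of Clock, Npas2, Cry2, Rora and Noct held none of the 3, which says only that these letters are not in these windows.

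In the hearts, the activator genes stood higher after D + Q. Bmal1, the activator without which the loop stops (ENSMUSG00000055116, GRCm39 chromosome 7, 112806152 to 112914735), read 9.47, 10.2 and 8.55 TPM in the 3 D + Q–treated hearts and 2.41, 2.03, 3.15 and 1.35 TPM in the 4 vehicle-treated hearts. Every treated heart lay above every vehicle heart, and the gap between the groups was wider than the spread within either. The log2 fold change was 1.85 (SE 0.20), and 1.77 without D + Q heart 3. Its main partner Clock (chromosome 5, 76342860 to 76452846) was at 19.6, 21.1 and 20.4 TPM in the treated hearts, compared with 13.8, 12.9, 16.0 and 11.4 TPM in the vehicle hearts. These groups did not overlap either, with a smaller log2 fold change of 0.56 (SE 0.11). Npas2, the paralog that can stand in for Clock (chromosome 1, 39232705 to 39402323), was at 3.74, 4.09 and 2.46 TPM in the treated hearts, compared with 1.68, 1.01, 1.5 and 0.581 TPM in the vehicle hearts. Its log2 fold change was 1.19 (SE 0.26), again with no overlap, and within the vehicle hearts the mouse with the lowest Bmal1, replicate 4, also had the lowest Clock and Npas2.

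**Figure D1:**
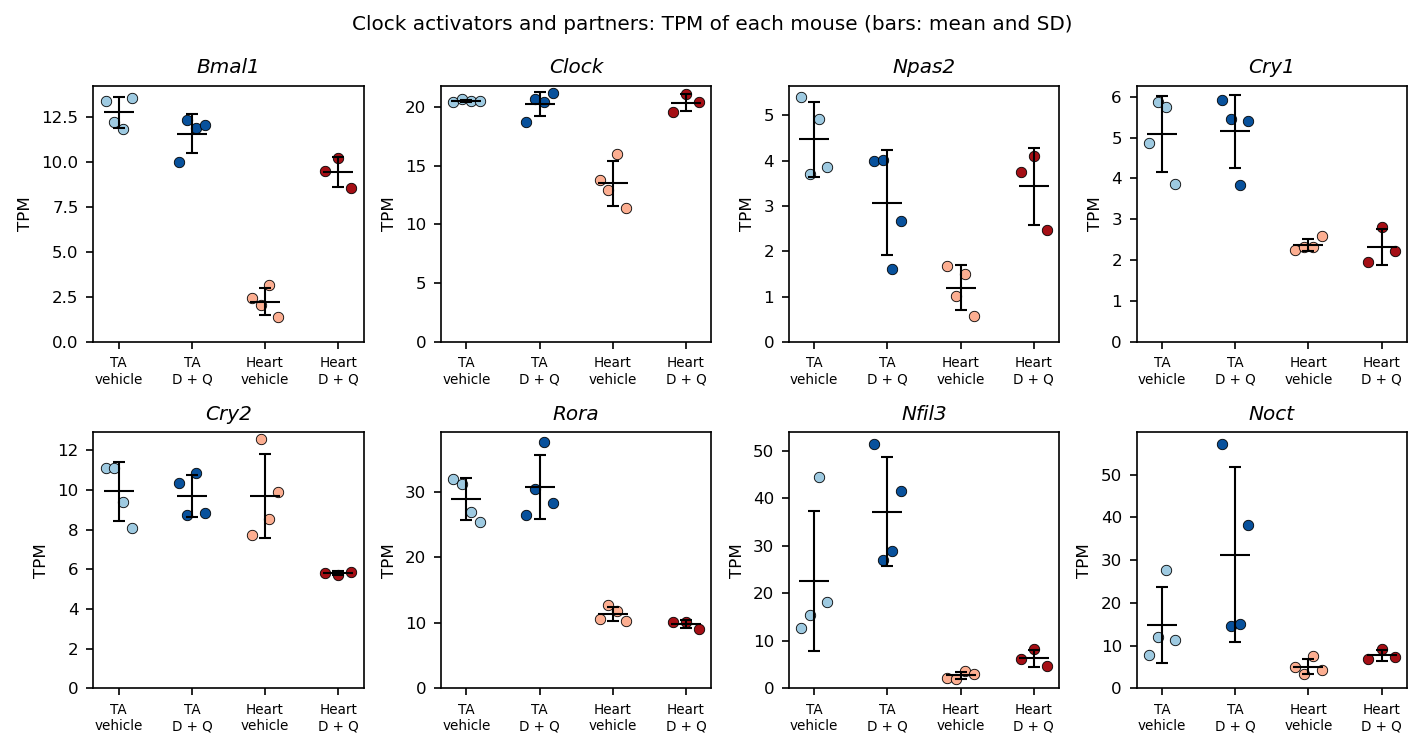
TPM of each of the 8 genes (y axes, from 0) in vehicle and D + Q–treated TA and heart (x axis), with 1 point per mouse and bars for the mean and SD. Bmal1, Clock and Npas2 sit lowest in the vehicle hearts, where Bmal1 lies between 1.35 and 3.15 TPM, while Nfil3 and Noct range most widely in TA.

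The D-box repressor and nocturnin genes had higher means after D + Q in heart. Nfil3 (chromosome 13, 53121245 to 53137010) was at 6.09, 8.18 and 4.65 TPM in the treated hearts, compared with 2.25, 2.05, 3.58 and 3.09 TPM in the vehicle hearts. The groups did not overlap, and the log2 fold change was 1.02 (SE 0.22). Noct (chromosome 3, 51128616 to 51159065) was at 6.81, 9.14 and 7.25 TPM in the treated hearts, compared with 5.02, 3.32, 7.57 and 4.34 TPM in the vehicle hearts. Vehicle heart 3 lay inside the range of the treated hearts, so the groups overlapped, with a log2 fold change of 0.59 (SE 0.25), or 0.32 without vehicle heart 2.

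The Cryptochrome repressors and Rora did not share the direction of Bmal1. Cry2 (chromosome 2, 92233894 to 92264474) was at 5.83, 5.69 and 5.89 TPM in the treated hearts, compared with 7.72, 12.6, 8.55 and 9.88 TPM in the vehicle hearts. All treated hearts were below all vehicle hearts, with a log2 fold change of -0.69 (SE 0.15). Cry1 (chromosome 10, 84967560 to 85021252) was at 1.96, 2.81 and 2.22 TPM in the treated hearts, compared with 2.25, 2.32, 2.33 and 2.60 TPM in the vehicle hearts. The ranges lay over each other and the log2 fold change was -0.03 (SE 0.14), whose sign turned when single mice were left out. Rora, the RORE activator (chromosome 9, 68561068 to 69295528), was at 10.2, 10.1 and 9.08 TPM in the treated hearts, compared with 10.6, 12.7, 11.8 and 10.3 TPM in the vehicle hearts. The treated hearts were all lower, by a narrow margin, and the log2 fold change was -0.23 (SE 0.07). Without D + Q heart 3 the log2 fold changes were 0.49 for Clock, 1.34 for Npas2, 1.23 for Nfil3 and 0.60 for Noct, and -0.80 for Cry2, -0.26 for Rora and 0.015 for Cry1.

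All 8 genes had at least 0.5 TPM in every library and were part of the fits. In the heart fit, where a call needed an adjusted p-value below 0.05 by limma and a log2 fold change beyond 0.5 in size, Bmal1 was the single member called, higher, where 0.105% of the 16132 genes tested were called higher and 0.211% lower. The call ended without D + Q heart 1, 2 or 3 and without vehicle heart 2 or 4, and with sex read from expression in place of labelled sex, where the log2 fold change was 1.70. No overlap with D + Q above was seen for 4 of the 8 genes, against 9.63% of all genes, and with D + Q below for 2, against 5.57%. Nothing is read from these counts, because the genes were chosen with this contrast known. From read counts fitted with DESeq2, the paper reported more genes in heart than were called here, in both directions, at the same thresholds. Other transcripts moved with treatment in the same hearts. The 5 atrial markers summed to between 382 and 427 TPM with D + Q and to between 864 and 4260 TPM with vehicle, none of them at 0 in a whole group, and 3 of the 5 were called lower. The 5 red-cell markers summed to between 26.8 and 122 TPM with D + Q and to between 346 and 1231 TPM with vehicle, and 0 of the 5 were called, all 5 having an unadjusted p-value under 0.05. In order of replicate, the 4 vehicle hearts had atrial sums of 864, 4260, 2221 and 1104 TPM. Their Bmal1 was at 2.41, 2.03, 3.15 and 1.35 TPM in the same order. The 6 cardiac markers summed to between 28789 and 30360 TPM with D + Q and to between 22901 and 25387 TPM with vehicle. All 6 were higher in every treated heart, and 0 of the 6 were called by limma, all 6 having an unadjusted p-value under 0.05. The 5 fibroblast markers summed to between 429 and 502 TPM with D + Q and to between 537 and 752 TPM with vehicle, and 0 of the 5 were called by limma, 3 having an unadjusted p-value under 0.05. Genes above 0 numbered 22579 to 22818 per treated heart, compared with 24089 to 25378 per vehicle heart. The part of these transcripts, and of the number of genes detected, in the heart values was not tested. The hour of collection is not given, so a difference in it between the groups cannot be told from treatment and was not tested.

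The genes that peak opposite to Bmal1 were at the other end in the same hearts. These and the other clock lists were also chosen with the heart results known, so their counts in heart describe the pattern and are no independent evidence of it. Of 10 such genes (the Period, REV-ERB and PAR bZIP genes with Ciart and Bhlhe41), 7 were called lower with D + Q, with a median log2 fold change of -1.29 against -0.0025 over all genes tested, Ciart and Dbp having the lowest values at -2.35 and -2.34. Over all the other clock lists the count called lower was also 7, and it ran from 0 to 8 when single hearts were left out, at 0 without D + Q heart 2 or 3 or vehicle heart 2 or 4, at 1 without D + Q heart 1, at 3 without vehicle heart 1 and at 8 without vehicle heart 3. The mean log2(TPM + 0.5) of the 10 genes was between 2.96 and 3.23 in D + Q–treated hearts and between 4.22 and 4.60 in vehicle hearts. Of 10 modifiers and cofactors of clock proteins (kinases and ubiquitin ligases among them), 0 were called in heart by limma and 2 had an unadjusted p-value under 0.05, both lower, a level that 9.65% of all genes reached as higher and 7.99% as lower. Of 6 relatives and corepressors, Bmal2, a paralog of Bmal1, was too low to be tested in heart, and 0 of the other 5 were called, with 1 higher and 1 lower at an unadjusted p-value under 0.05. Of 6 output genes, 0 were called and 3 were lower at an unadjusted p-value under 0.05.

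**Figure D2:**
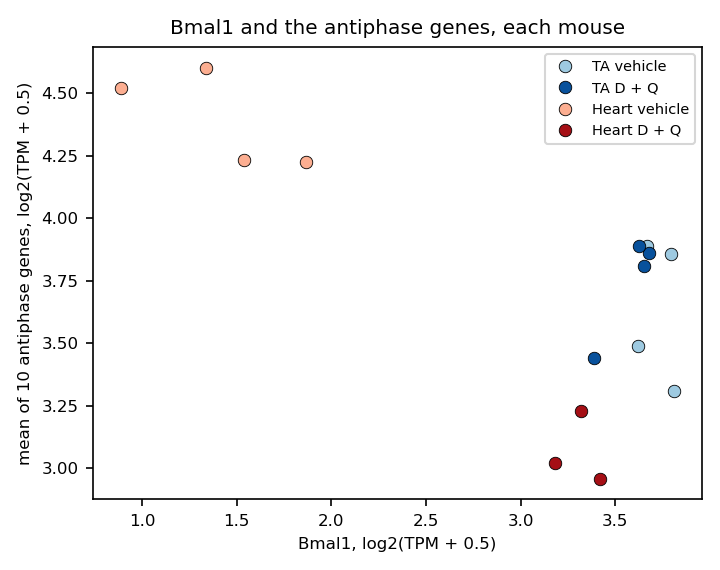
Bmal1 (x axis) against the mean of 10 antiphase clock genes (y axis), both as log2(TPM + 0.5), with 1 point per mouse coloured by group. Vehicle hearts sit at low Bmal1 with a mean between 4.22 and 4.60, D + Q–treated hearts at high Bmal1 with a mean between 2.96 and 3.23, and the TA mice of both treatments lie together.

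In TA, none of the 8 genes passed the test between D + Q and vehicle, and for each of them the groups overlapped. Bmal1 was at 9.96, 12.3, 11.9 and 12.1 TPM in the 4 D + Q–treated muscles and at 13.4, 12.2, 11.8 and 13.5 TPM in the 4 vehicle-treated muscles. Its log2 fold change was -0.09 (SE 0.13), with D + Q replicate 1 lowest of the 8. Clock was the steadiest gene, at 18.8, 20.7, 20.4 and 21.2 TPM in the treated muscles, compared with 20.4, 20.7, 20.5 and 20.5 TPM in the vehicle muscles, where its coefficient of variation was 0.48%. Npas2 was at 3.98, 4.02, 1.60 and 2.67 TPM in the treated muscles, compared with 5.41, 3.71, 4.92 and 3.85 TPM in the vehicle muscles. Replicates 3 and 4 of the D + Q group held its lowest values, and its log2 fold change was -0.65 (SE 0.24), or -0.39 without D + Q replicate 3.

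Nfil3 and Noct differed widely between TA mice of the same group. Nfil3 was at 51.4, 27.0, 28.9 and 41.5 TPM in the treated muscles, compared with 12.6, 15.4, 44.5 and 18.2 TPM in the vehicle muscles. Noct was at 57.2, 14.5, 15.1 and 38.1 TPM in the treated muscles, compared with 7.87, 12.1, 27.8 and 11.2 TPM in the vehicle muscles. Both genes were highest in the same 3 mice, namely replicates 1 and 4 of the D + Q group and replicate 3 of the vehicle group, and without vehicle replicate 3 the treated mice would lie above the rest for each. The log2 fold changes were 0.61 (SE 0.26) for Nfil3 and 0.60 (SE 0.24) for Noct. For Nfil3 the value was 0.34 without D + Q replicate 3 and 1.01 without vehicle replicate 3. For Noct it was 0.97 (SE 0.48) with no covariate in place of the surrogate variable, and 0.40 (SE 0.20) without vehicle replicate 1. A replicate block in place of the surrogate variable also gave 0.97 (SE 0.53) for Noct. Labelled sex in its place gave 0.80 (SE 0.61) for Noct and 0.59 (SE 0.44) for Nfil3. The surrogate variable in the TA model, an unlabelled source of variation estimated from all genes, was also highest in these 3 mice. It was at 0.70 and 0.23 in D + Q replicates 1 and 4 and 0.30 in vehicle replicate 3. The coefficient of variation of Noct was 65.6% with D + Q and 60.2% with vehicle.

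The remaining members were close between the TA groups. Cry1 was at 5.91, 5.46, 3.84 and 5.40 TPM in the treated muscles, compared with 4.88, 5.88, 5.76 and 3.87 TPM in the vehicle muscles. Cry2 ranged from 8.75 to 10.9 TPM with D + Q and from 8.09 to 11.1 TPM with vehicle. Rora ranged from 26.4 to 37.7 TPM with D + Q and from 25.4 to 32.0 TPM with vehicle. Their log2 fold changes were -0.07 (SE 0.17), -0.03 (SE 0.16) and 0.14 (SE 0.13), and the signs for Cry1 and Cry2 turned under some alternatives.

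By limma, 0 of the 8 genes were called in TA, as were 0 of all 16298 genes tested (0.00% in each direction), and the adjusted p-value of all 8 was 0.999. A fit that called no gene at all cannot show that these genes did not respond. The paper, which fitted read counts with DESeq2, reported differentially expressed genes in TA in both directions at the same thresholds. At an unadjusted p-value under 0.05, Nfil3 and Noct were higher and Npas2 was lower, where 0.638% of all genes were higher and 2.36% lower at that level. The treated mice lay all above the vehicle mice for 0 of the 8 genes, against 0.264% of all genes, and all below them for 0, against 1.25%. Of the other clock lists, 0 genes were called in either direction. At an unadjusted p-value under 0.05, 1 of the 10 antiphase genes and 1 of the 9 modifiers tested were higher, and 0 of 5 relatives and 0 of 6 outputs had such a p-value. Fbxl21, a ubiquitin ligase subunit that acts on Cryptochromes, and Rorb, a paralog of Rora, were too low to be tested in TA.

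**Figure D3:**
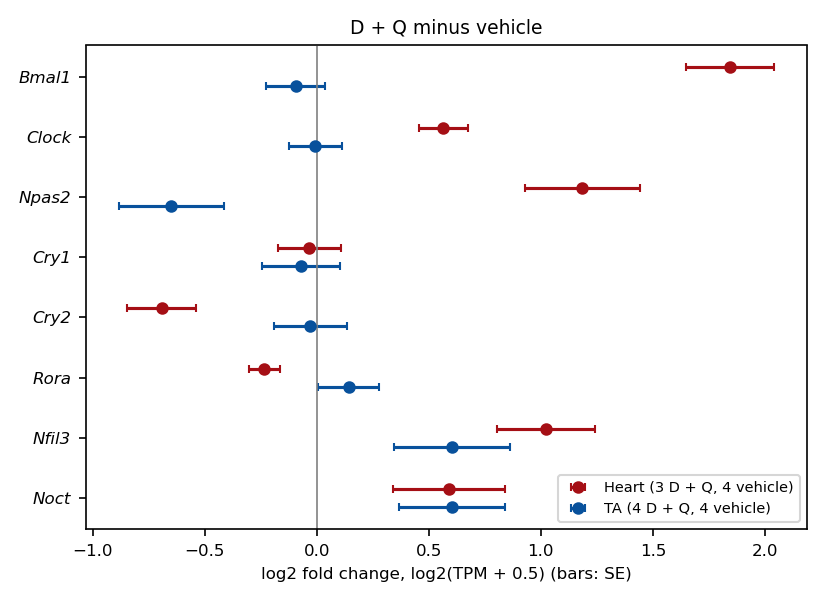
Log2 fold change of D + Q over vehicle (x axis, bars for the SE) for the 8 genes (y axis) in heart and TA. Values are on log2(TPM + 0.5), adjusted for labelled sex in heart and for the surrogate variable in TA. Bmal1 sits at 1.85 in heart and -0.09 in TA, and Npas2 lies on opposite sides of 0 in the 2 tissues, at 1.19 and -0.65.

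The effect of D + Q in heart minus that in TA, from a fit of all 15 libraries, was 2.03 (SE 0.24, log2 scale) for Bmal1, 1.77 (SE 0.39) for Npas2 and 0.60 (SE 0.14) for Clock. It was -0.64 (SE 0.21) for Cry2 and -0.28 (SE 0.18) for Rora. For Cry1, Nfil3 and Noct it was -0.05 (SE 0.23), 0.23 (SE 0.48) and -0.36 (SE 0.62), each smaller than its SE. That fit held neither sex nor the surrogate variable, so its values need not match the adjusted fold changes above. For Noct in TA the fold change was 0.97 with no covariate and 0.60 with the surrogate variable. The values of heart minus TA were not tested, since the heart contrast in them was known when the genes were chosen. Tissue, age and length of treatment cannot be told apart, and the hour of collection is not given for any group.

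Set side by side, the 4 groups fell into different orders for different genes. For Bmal1 the order of mean TPM was vehicle TA at 12.7 ± 0.858 (SD, n = 4), D + Q TA at 11.5 ± 1.07 (SD, n = 4), D + Q heart at 9.41 ± 0.827 (SD, n = 3) and vehicle heart at 2.23 ± 0.751 (SD, n = 4). Each of the first 3 groups overlapped its neighbour, and the vehicle hearts stood apart below. Clock had the same shape, with means between 20.3 and 20.5 TPM in 3 groups that overlapped and 13.5 ± 1.93 TPM (SD, n = 4) in vehicle hearts. For Npas2 the vehicle hearts were again lowest, at 1.19 ± 0.496 TPM (SD, n = 4), but the highest of them overlapped the lowest D + Q TA muscle.

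Cry1 and Rora instead separated TA from heart, which also differ in age and length of treatment. Cry1 lay between 3.84 and 5.91 TPM in all 8 TA muscles and between 1.96 and 2.81 TPM in all 7 hearts, with no overlap. Rora lay between 25.4 and 37.7 TPM in TA and between 9.08 and 12.7 TPM in heart. For Cry2 the D + Q hearts alone stood apart, at 5.80 ± 0.103 TPM (SD, n = 3), below TA groups at 9.69 ± 1.07 and 9.92 ± 1.47 and vehicle hearts at 9.68 ± 2.11 TPM (SD, n = 4 each), which overlapped one another. Nfil3 was higher in every TA muscle than in every heart, while for Noct, as for Npas2, every group overlapped its neighbour in the order of means.

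The difference between TA and heart was read in vehicle mice and in D + Q mice from that same fit. Among vehicle mice, TA was above heart by 2.68 (SE 0.33, log2 scale) for Nfil3, 2.32 (SE 0.16) for Bmal1, 1.59 (SE 0.27) for Npas2, 1.35 (SE 0.42) for Noct, 1.31 (SE 0.12) for Rora, 0.95 (SE 0.16) for Cry1 and 0.59 (SE 0.10) for Clock. For Cry2 the difference was 0.05 (SE 0.15). By the limma call, 7 of the 8 were higher in vehicle TA, where 22.6% of the 17868 genes tested were called higher and 14.1% lower. The vehicle hearts were among the samples known when the genes were chosen, so the count is a description and no p-value is given for it. Rescaling by median-of-ratios moved the median of all genes from 0.16 to -0.0003 and the share of called genes that were higher from 61.6% to 47.1%. The call for Clock was then lost, at 0.41.

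Among D + Q mice, Bmal1, Clock and Npas2 were not called between the tissues. TA minus heart was 0.28 (SE 0.18) for Bmal1, -0.0089 (SE 0.10) for Clock and -0.18 (SE 0.29) for Npas2. It was 2.45 (SE 0.35) for Nfil3, 1.72 (SE 0.46) for Noct, 1.59 (SE 0.13) for Rora, 0.99 (SE 0.17) for Cry1 and 0.69 (SE 0.16) for Cry2. These last 5 were called higher in D + Q TA, where 21.4% of all genes were called higher and 15.9% lower. The D + Q hearts were also known when the genes were chosen, so calls and missing calls here are a description. Whether the TA-to-heart difference changed with treatment was not tested.

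**Figure D4:**
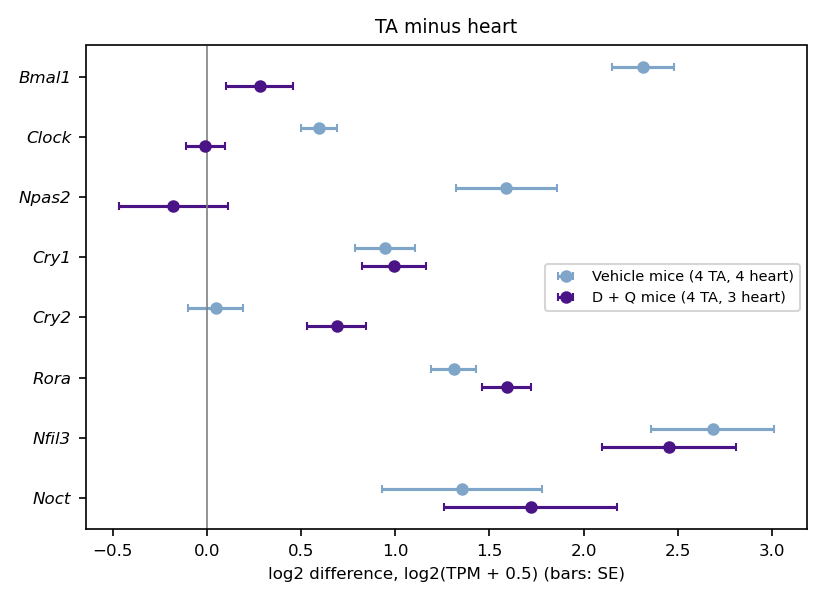
TA minus heart (x axis, difference of log2(TPM + 0.5), bars for the SE) for the 8 genes (y axis), in vehicle mice and in D + Q mice. Bmal1 sits at 2.32 in vehicle mice and 0.28 in D + Q mice, while Rora, Cry1 and Nfil3 lie well to the right in both.

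The wider clock lists were read in the same comparison of vehicle TA with vehicle heart. The vehicle hearts were known when these lists were chosen, so their counts are again a description. Of the 10 modifiers, 5 were called higher in TA and 1 lower, where 22.6% of all genes were called higher and 14.1% lower. The largest differences were -0.75 (SE 0.15) for Fbxl21, 0.67 (SE 0.15) for Fbxw11, another ubiquitin ligase subunit, 0.66 (SE 0.11) for Usp2, a deubiquitinase, and 0.65 (SE 0.12) for Btrc. Of the 6 relatives, 4 were called higher and 1 lower. The E-box repressor Bhlhe40 was higher in TA, with a difference of 1.13 (SE 0.26), and Rorb was lower, with a difference of -1.19 (SE 0.15). Of the 6 outputs, Klf10 was called higher and Wee1 lower, and of the 10 antiphase genes 0 were called higher and 5 lower.

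Ratios within a library, which do not depend on the total, described the balance of partners. Clock to Bmal1 was between 1.51 and 1.88 in the 8 TA muscles, between 2.07 and 2.39 in D + Q hearts and between 5.08 and 8.43 in vehicle hearts. Cry2 to Cry1 was between 1.60 and 2.83 in TA, between 2.02 and 2.98 in D + Q hearts and between 3.43 and 5.42 in vehicle hearts. Both ratios were therefore highest in vehicle hearts, and for neither did those hearts overlap another group. Clock to Npas2 did not separate them in this way. It was between 8.21 and 19.6 in vehicle hearts, overlapping D + Q hearts at 5.16 to 8.28 and D + Q TA at 4.71 to 12.8. In vehicle TA it was between 3.78 and 5.57. Nfil3 to Dbp, the repressor and activator of the D-box, was between 0.027 and 0.071 in vehicle hearts, between 0.36 and 0.97 in D + Q hearts and between 0.50 and 3.48 in TA.

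Across the 8 TA mice, Bmal1 was compared with the other 7 members and with the antiphase mean, 8 relations in all. Noct ran opposite to Bmal1, with Pearson's r = -0.85 (exact permutation test, two-sided, p = 0.0041, Benjamini-Hochberg adjusted p = 0.033) and Spearman's rho = -0.88 (exact permutation test, p = 0.0072, adjusted p = 0.043). Nfil3 gave r = -0.77 (exact permutation test, p = 0.013, adjusted p = 0.051) and rho = -0.86 (exact permutation test, p = 0.011, adjusted p = 0.043). Without the 2 mice farthest from the median of Bmal1, D + Q replicate 1 and vehicle replicate 4, r was -0.71 for Noct and -0.78 for Nfil3.

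Neither relation was stable to scaling. After median-of-ratios scaling r was -0.41 for Noct (exact permutation test, adjusted p = 0.62) and -0.15 for Nfil3 (exact permutation test, adjusted p = 0.92). Taken as deviations from the treatment group means, r was -0.78 for Noct (exact permutation test, adjusted p = 0.15) and -0.66 for Nfil3 (exact permutation test, adjusted p = 0.19). Within either treatment there were 4 mice, too few for a value. Leaving out D + Q replicate 1 or 2, or any 1 of the 4 vehicle mice, took the adjusted p-value of Pearson's r for Noct above 0.05. Clock gave r = 0.72 (exact permutation test, p = 0.098, adjusted p = 0.26) and rho = 0.19 (exact permutation test, p = 0.66, adjusted p = 0.93), and its r fell to -0.27 without the same 2 mice, so it rested on them. For Npas2, Cry1, Cry2, Rora and the antiphase mean, r lay between -0.51 and 0.17 and no adjusted p-value was under 0.05. No r is given for the hearts alone, which fall into separate groups by treatment.

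**Figure D5:**
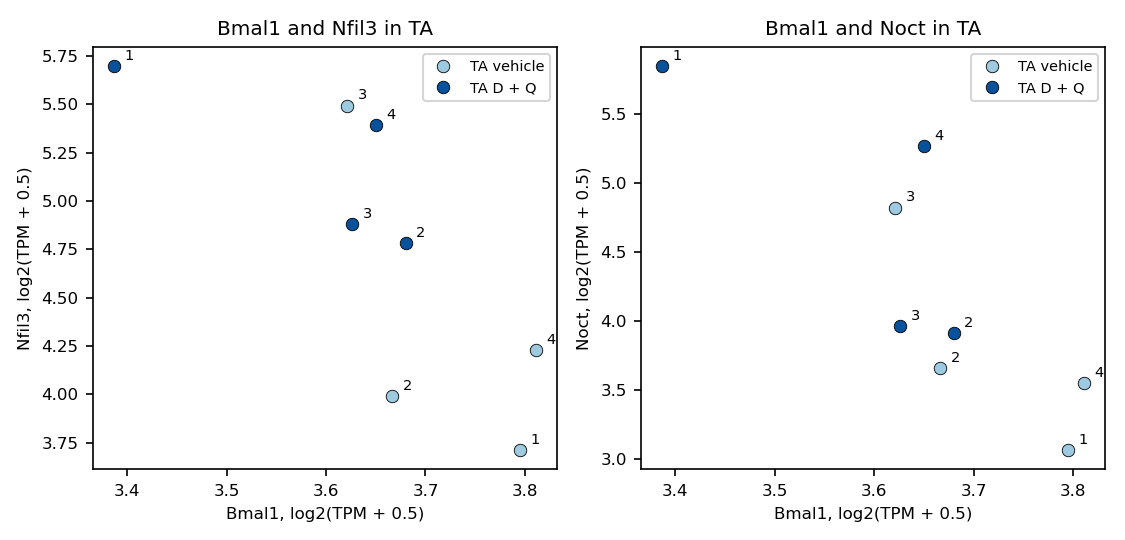
Bmal1 (x axes) against Nfil3 and Noct (y axes) in the 8 TA mice, all as log2(TPM + 0.5), with colours for treatment and numbers for the replicate. D + Q replicate 1 has the lowest Bmal1 and the highest Nfil3 and Noct, and the axes for Bmal1 cover a much narrower range than those for the other gene.

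The genes whose pattern was most like that of Bmal1 were looked for among 14914 genes tested in both tissues. Likeness was the smaller of the correlations over the 8 TA muscles and the 7 hearts and is a description with no p-value, since all genes share the libraries and their scaling and the hearts differ by treatment. Outside the members it was highest for Tab2, an adaptor of the TAK1 kinase, at 0.86, followed by Zfp108 at 0.84, the ATP synthase subunit gene Atp5mk at 0.84, the muscle methyltransferase gene Smyd1 at 0.83 and Gnl3l at 0.83. Clock, at 0.72, ranked 43 by this measure. That value is its correlation in TA, which fell to -0.27 without D + Q replicate 1 and vehicle replicate 4. The genes named here outside the members were not read without those mice. The most opposite patterns, by the weaker of their negative correlations, were those of Osr1, Sertad1, the cytoplasmic actin gene Actg1, Loxl4 and Ccdc71l, at -0.81, -0.81, -0.81, -0.80 and -0.80.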

How the data were processed

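The authors trimmed reads with Trim Galore 0.6.10, quantified them with Salmon 1.10.3 against GRCm39 and deposited TPM per gene for 15 libraries, 1 per mouse. TPM keeps no depth, so no counting error can be given. The annotation release behind the table is not given in the sources used here. Of the 56980 Ensembl identifiers, 56236 were found in GENCODE M39, which gave symbols and positions. Samples were grouped by their labels, and p-values measure the spread between these mice.

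Genes that reached 0.5 TPM in 3 or more libraries of a fit were fitted as log2(TPM + 0.5) by limma 3.58.1 in R 4.3.3, with a trend, and called at a Benjamini-Hochberg adjusted p-value below 0.05 with a log2 fold change beyond 0.5 in size. The heart model held labelled sex, the TA model 1 surrogate variable estimated by re-weighting over 5 rounds, and the comparison of tissues 4 group means without covariates. Exact permutation tests were run in Python 3.11.15 with NumPy 2.4.6. The code was tested on simulated data.

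The 8 genes and all lists were chosen with earlier results of these data known. Named genes are the 8 genes, at most 4 called genes of each list with the largest absolute log2 fold change, genes no fit tested in a tissue (1 gene that this rule names is not reported here), and the 5 genes most and 5 least like Bmal1. The ratios, with Dbp, were chosen after values had been seen. Promoter windows are RefSeq's (GRCm38.p6), placed on GRCm39 by exact match. Replicate numbers are shared between groups by mice that are different animals. Deviations from the group means of mice with one number correlated from -0.30 to 0.037 in TA and from -0.036 to 0.031 in heart, so no block entered the models. Alternatives were other pseudocounts, filters, scaling, priors and covariates, and leaving out each mouse. Sex read from expression was added after the data had been seen.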

Additional observations from a re-analysis of the deposited data

How the results depend on the processing

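Over the alternatives, 124 of 128 log2 fold changes of the 8 genes in heart, 123 of 136 in TA and 179 of 184 for vehicle TA against vehicle heart kept their sign, and the others belonged to Cry1, Cry2 and Clock. The number of members called higher in heart, 1 as reported, was 0 with no filter on low values, 0 without the trend in limma, 0 with a replicate block replacing sex and 0 with sex read from expression, and it ran from 0 to 2 when each heart was left out. The number of genes of the other clock lists called lower in heart, 7 as reported, was 0 with no filter, 1 without the trend, 1 with the replicate block and 3 with sex read from expression, and it ran from 0 to 8 when each heart was left out. The log2 fold change of Bmal1 in heart stayed between 1.67 and 2.02, and was 1.72 with the replicate block. The replicate block changed no call of a member in TA or between tissues, with 0 called in TA and 7 between vehicle TA and vehicle heart. Members called higher in vehicle TA ran from 6 to 7, and the call for Noct was lost without vehicle TA replicate 3, at 1.00, and without vehicle heart replicate 2, at 1.19. By Pearson's r, 1 of the 8 relations with Bmal1 in TA passed an adjusted p-value of 0.05 as reported, and 2 with a pseudocount of 1. That count was 0 with median-of-ratios scaling, 0 with deviations from the treatment group means, and 0 to 1 when each mouse was left out. By Spearman's rho, Noct and Nfil3 both passed as reported, and rho was not read under the alternatives. Over all genes in heart, median-of-ratios scaling gave 11 called higher in place of 17, and moved the share of called genes that were higher from 33.3% to 25.6%. The cause of these changes was not tested. TPM gives no depth, so whether low levels such as those of Npas2 in heart are limited by read numbers is unknown.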
